A study of Mus musculus with 10 samples.

Results

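The 10 genes described here encode integrin subunits that bind collagen, laminin, fibronectin, vitronectin or tenascin, and do not include every such subunit. They are the alpha subunit genes Itga1, Itga2, Itga3, Itga5, Itga6, Itga9 and Itgav and the beta subunit genes Itgb1, Itgb3 and Itgb4. They were listed by name according to their known ligands and are 10 of the 23284 gene symbols in the deposited count table. RNA-Seq was performed on 3 endothelial populations of C57BL/6 mice of 6 to 8 weeks: LN-LEC and LN-BEC, the lymphatic and the blood endothelial cells of lymph nodes (4 and 3 libraries), and D-LEC, the lymphatic endothelial cells of diaphragm (3 libraries). No group carried an engineered allele or a treatment in the labels. Nodes were a pool of inguinal, axillary, brachial, cervical and mesenteric sites, cells of several animals were combined for each library, and cells were sorted as CD45-negative and CD31-positive, with PDPN (podoplanin) separating LEC from BEC. The comparisons ask how matrix receptors differ between lymphatic and blood endothelium of one organ, and between lymphatic endothelium of 2 organs.

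Integrins are heterodimers of 1 alpha and 1 beta subunit that span the plasma membrane, bind matrix proteins outside the cell and connect through talin and kindlin to actin inside it. The alpha subunit largely sets the ligand: alpha1 and alpha2 bind collagens, alpha3 and alpha6 bind laminins, alpha5 binds fibronectin, alphav binds vitronectin and other proteins with an RGD motif, and alpha9 binds tenascin-C, osteopontin and a splice form of fibronectin. Beta1 pairs with all of these alpha subunits, beta3 pairs with alphav among them, and beta4 pairs only with alpha6. In endothelium these receptors anchor vessels to the basement membrane, and alpha9beta1 is known for its role in the valves of lymphatic vessels.

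The libraries held between 22429940 and 48906070 counted fragments, and a count of 3, taken as the limit of detection, amounts to 0.0613 to 0.134 CPM, which scales a count by the total of its library. Normalized counts, obtained with DESeq2 size factors, serve as levels, and levels of different genes are compared only after division by the kilobases (kb) of summed exon length. Differences are log2 fold changes from edgeR's quasi-likelihood test on all 10 libraries, and an adjusted p under 0.05 over the 15373 genes tested is called. The 3 comparisons share their libraries in pairs and are not independent. LN-LEC replicate 4 and LN-BEC replicate 3 stood apart from the other libraries of their populations, with a chi-square per gene of at least 113 against each of them, where the other pairs within a population gave at most 39.6. The sorted identity was checked against defining markers. The summed normalized count of 6 LEC markers was 94668 to 119450 in LN-LEC, 387239 to 415551 in D-LEC and 2891 to 7955 in LN-BEC, with Ccl21a at or under 3 counts in every library. The sum of 6 BEC markers was 136893 to 143805 in LN-BEC, 2011 to 3407 in LN-LEC and 3331 to 4072 in D-LEC. In bulk samples, fewer cells of a type and less RNA per cell cannot be told apart.

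All 10 genes were measured and tested, and together they took 0.222% of the fragments for LN-LEC, 0.184% for LN-BEC and 0.302% for D-LEC (means of 4, 3 and 3 libraries). Between LN-LEC and LN-BEC, 7 of the 10 were called, where 38.2% of all tested genes were called. Itga6 and Itga9 differed at least 5-fold, as did 9.82% of all genes, and for 7 members the libraries did not overlap, as for 44.9% of all genes. Itga9, Itgav and Itgb3 were higher in LN-LEC, and Itga1, Itga3, Itga6 and Itgb4 were higher in LN-BEC. The shares of all genes higher in LN-LEC and in LN-BEC were 19.8% and 18.4%. Between LN-LEC and D-LEC, 8 were called against a background of 45.8%, 8 did not overlap (all genes 50.0%), and Itga2 differed at least 5-fold (all genes 12.1%). Itga1, Itga2, Itga3 and Itga9 were higher in LN-LEC and Itga6, Itgav, Itgb1 and Itgb3 were higher in D-LEC, where 24.0% and 21.7% of all genes were called in those directions. Between D-LEC and LN-BEC, 9 were called against a background of 48.0%, 9 did not overlap (all genes 56.0%), and Itga2 and Itga9 differed at least 5-fold (all genes 15.2%). Itga9, Itgav, Itgb1 and Itgb3 were higher in D-LEC (22.4% of all genes) and Itga1, Itga2, Itga3, Itga6 and Itgb4 were higher in LN-BEC (25.6% of all genes). The median absolute log2 fold change of the 10 genes was 0.73, 0.65 and 1.63 in the 3 comparisons in this order, and that of all tested genes was 0.43, 0.51 and 0.58.

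**Figure D1:**
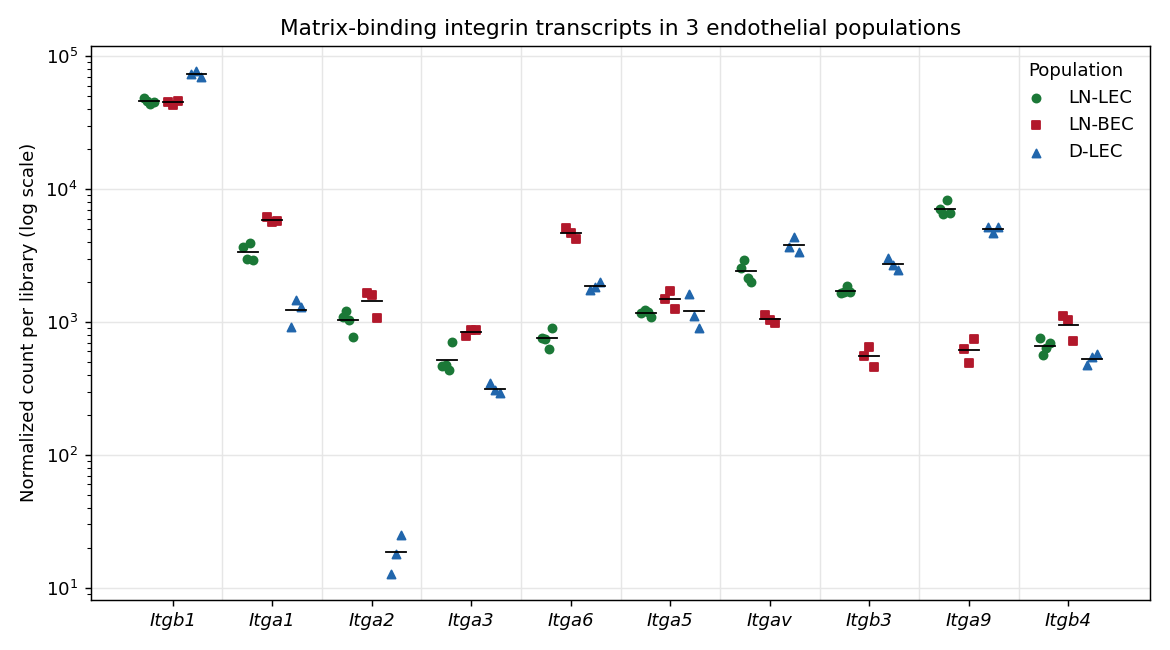
Normalized count of each integrin gene in each library, on a log scale, with 1 point for a library and a bar at the mean of each population (LN-LEC n = 4, LN-BEC n = 3, D-LEC n = 3). Itgb1 lies above all other members in every library, and Itga2 in D-LEC lies lowest, at 12.6 to 24.8.

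Itgb1, the common beta subunit, was by far the most abundant member. It lies on chromosome 8 from 131209554 to 131257479 of mm9 (forward strand, 16 exon blocks, 4.194 kb of exon). Its normalized counts were 48543, 45682, 44000 and 44911 in the LN-LEC libraries, 45420, 42919 and 46315 in LN-BEC, and 73816, 77118 and 69057 in D-LEC. The libraries of the lymph node populations overlapped, and every D-LEC library was above all of them. By edgeR, D-LEC exceeded LN-LEC 1.58-fold (log2 fold change of LN-LEC minus D-LEC -0.66 ± 0.08 SE, adjusted p = 1.9e-05) and LN-BEC 1.63-fold (D-LEC minus LN-BEC 0.70 ± 0.09, adjusted p = 2.0e-05). LN-LEC and LN-BEC differed by 0.04 ± 0.08 on the log2 scale (edgeR adjusted p = 0.72), and over 18 alternative analyses this value ranged from 0.02 to 0.08. Per kb of exon, Itgb1 was at 10917 normalized counts for LN-LEC, 10702 for LN-BEC and 17485 for D-LEC, above 99.1%, 99.0% and 99.6% of tested genes. It made up 96.4%, 97.7% and 96.9% of the summed per-kb level of Itgb1, Itgb3 and Itgb4 for the LN-LEC, the LN-BEC and the D-LEC.

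Sequence before a listed start is shown for the most abundant member and for the 2 members with the largest differences between populations. The sequences are the 250 bases before a transcription start listed in RefSeq (build GRCm38.p6), 5′ to 3′ on the strand of the gene, with every CG dinucleotide in capitals. A gene can have more than 1 listed start. Whether a window lies at the 5′ end of its gene or before a start inside it was not checked. The gene spans given here are of mm9, another build, and cannot be set directly against the windows. The windows are therefore not taken as the promoters of these genes. The windows shown lie at chr8:128685404-128685653 (forward strand) for Itgb1, chr9:118711442-118711691 (forward strand) for Itga9 and chr13:114932101-114932350 (reverse strand) for Itga2.
Itgb1: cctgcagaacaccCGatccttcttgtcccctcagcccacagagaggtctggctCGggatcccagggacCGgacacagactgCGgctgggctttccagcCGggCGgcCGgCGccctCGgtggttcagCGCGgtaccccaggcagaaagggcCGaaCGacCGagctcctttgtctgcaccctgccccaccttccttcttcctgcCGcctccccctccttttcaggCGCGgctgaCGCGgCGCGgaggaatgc
Itga9: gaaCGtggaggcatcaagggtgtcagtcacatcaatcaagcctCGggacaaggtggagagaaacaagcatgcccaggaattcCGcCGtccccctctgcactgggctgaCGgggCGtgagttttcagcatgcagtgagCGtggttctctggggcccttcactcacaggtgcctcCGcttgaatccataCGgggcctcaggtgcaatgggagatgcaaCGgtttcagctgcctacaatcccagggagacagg
Itga2: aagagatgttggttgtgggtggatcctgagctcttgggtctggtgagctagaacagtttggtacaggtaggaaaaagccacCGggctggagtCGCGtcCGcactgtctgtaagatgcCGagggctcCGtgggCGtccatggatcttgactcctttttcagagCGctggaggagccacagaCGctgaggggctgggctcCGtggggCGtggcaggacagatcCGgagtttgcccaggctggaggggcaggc
The Itgb1 window holds 21 CG dinucleotides, the Itga9 window 10 and the Itga2 window 12. The median over 32851 such windows of the mouse genome was 6. Windows were found for 7 of the 10 genes, and those of Itga1, Itga5 and Itgav held 10, 11 and 18, while the 2 windows of Itga3 held 22 and 5. The windows of Itga9 and Itga1, genes that were high in different populations, held equal numbers, although the place of each within its gene was not checked. This is a description of the letters, and no binding or methylation was measured.

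Itga9, which encodes alpha9, had the largest difference between LN-LEC and LN-BEC among the members. The gene spans 294.295 kb on chromosome 9 (118515827 to 118810121 of mm9, forward strand, 29 exon blocks). The libraries gave normalized counts of 7020, 6486, 8265 and 6649 for LN-LEC, 623, 493 and 744 for LN-BEC and 5146, 4707 and 5224 for D-LEC. The LEC libraries of both organs lay far above the LN-BEC libraries, and all LN-LEC libraries lay above all D-LEC libraries. Itga9 was 11.6-fold higher in LN-LEC than LN-BEC (log2 fold change 3.54 ± 0.14 SE, edgeR adjusted p = 4.3e-10) and 8.08-fold higher in D-LEC than in LN-BEC (3.01 ± 0.14, edgeR adjusted p = 1.0e-09). The difference between the 2 LEC populations was smaller, at 1.44-fold in favour of LN-LEC (0.52 ± 0.12, edgeR adjusted p = 0.0038). Per kb it ranked second among the 10 members in both LEC populations (1002 and 709 normalized counts per kb) and last in LN-BEC (87.4).

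The LN-BEC libraries also held some RNA of LEC markers, which touches the members that were higher in LEC. Relative to its mean in LN-LEC, Itga9 stood at 8.77%, 6.94% and 10.5% in LN-BEC replicates 1, 2 and 3. Lyve1, Pdpn, Prox1 and Reln, which mark LEC, stood between 0.942% and 1.42% in replicate 2, between 1.42% and 2.72% in replicate 1 and between 4.31% and 6.23% in replicate 3. Flt4, a further LEC marker that blood endothelium can also express, stood at 14.6%, 11.9% and 16.6%. In each LN-BEC library the Itga9 percentage was above those of Lyve1, Pdpn, Prox1 and Reln and below that of Flt4, and replicate 3 was highest for Itga9 and for all 5 of these markers. Itgav stood at 47.1%, 43.3% and 40.8% and Itgb3 at 32.0%, 37.6% and 26.7%, with replicate 3 lowest for both. Without LN-LEC replicate 4 and LN-BEC replicate 3, each of these 3 genes was still called higher in LN-LEC by edgeR. The part of LEC RNA in the LN-BEC levels was not tested.

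**Figure D2:**
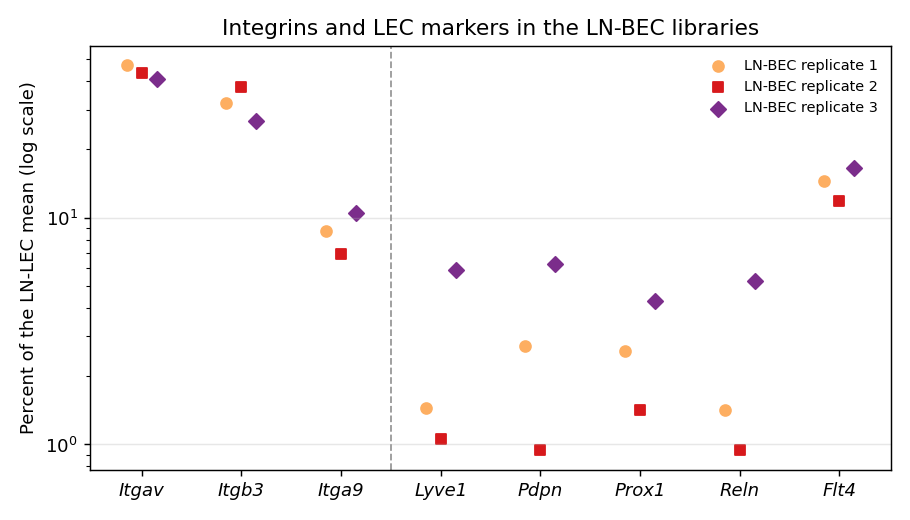
Level of Itgav, Itgb3, Itga9 and of 5 LEC markers in each LN-BEC library, in percent of the mean of LN-LEC on a log scale, with 1 symbol for a library. Itga9 lies at 6.94% to 10.5%, Lyve1, Pdpn, Prox1 and Reln lie at 6.23% or less, and Flt4 lies at 11.9% to 16.6%.

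The collagen-binding alpha subunits, Itga1 and Itga2, were higher in both lymph node populations than in D-LEC. Itga1 (chromosome 13, 115748289 to 115892172 of mm9, reverse strand, 29 exon blocks) encodes alpha1, known as a receptor for basement membrane collagen IV. Normalized counts were 3653, 2995, 3936 and 2909 for LN-LEC, 6183, 5699 and 5719 for LN-BEC and 923, 1460 and 1292 for D-LEC. The 3 populations did not overlap, with LN-BEC highest and D-LEC lowest. LN-BEC exceeded LN-LEC 1.72-fold (LN-LEC minus LN-BEC -0.78 ± 0.15 SE, edgeR adjusted p = 9.2e-04) and D-LEC 4.80-fold (D-LEC minus LN-BEC -2.26 ± 0.17, edgeR adjusted p = 1.8e-07). LN-LEC exceeded D-LEC 2.79-fold (1.48 ± 0.16, edgeR adjusted p = 6.3e-06).

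Itga2, which encodes alpha2, was the member with the largest difference of all. It lies beside Itga1 on the same strand of chromosome 13 (115626120 to 115722249, 30 exon blocks), 26.039 kb away. Single libraries had normalized counts of 1082, 1219, 1036 and 770 for LN-LEC, 1666, 1594 and 1074 for LN-BEC and 12.6, 18.0 and 24.8 for D-LEC. The D-LEC values rest on 10, 18 and 30 counted fragments, above 3 counts in each library and far below every lymph node library. Itga2 was 54.0-fold higher in LN-LEC (LN-LEC minus D-LEC 5.75 ± 0.28 SE, edgeR adjusted p = 6.7e-09) and 75.4-fold higher in LN-BEC (D-LEC minus LN-BEC -6.24 ± 0.28, edgeR adjusted p = 3.3e-09). LN-LEC and LN-BEC libraries overlapped and the difference missed the threshold (-0.48 ± 0.18, edgeR adjusted p = 0.057). It passed the threshold without LN-BEC replicate 3 (-0.66, adjusted p = 0.0057), without both that library and LN-LEC replicate 4 (-0.53, adjusted p = 0.0047) and without LN-LEC replicate 2 (-0.57, adjusted p = 0.039). It also passed with DESeq2 (-0.49, adjusted p = 0.036) and with DESeq2 size factors in edgeR (-0.50, adjusted p = 0.049), and the adjusted p ran from 0.0047 to 0.213 over 18 alternatives.

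Pelo, a gene for a ribosome rescue factor, lies within the span of Itga1 and offers a neighbour at the same locus. By edgeR it was 1.49-fold higher in LN-LEC than D-LEC (adjusted p = 0.0055), was higher in LN-BEC than D-LEC (D-LEC minus LN-BEC -0.67, adjusted p = 0.0028) and did not pass between LN-LEC and LN-BEC (adjusted p = 0.65). Markers of pericytes and smooth muscle, which also carry alpha1, had the same order as these 2 genes. The summed normalized count of the 8 listed markers was 3362 to 5413 for LN-LEC, 5970 to 7848 for LN-BEC and 334 to 496 for D-LEC, with 7 of 8 called higher in LN-LEC than D-LEC, 8 of 8 higher in LN-BEC than D-LEC and 5 of 8 higher in LN-BEC than LN-LEC. Most of the sum in the lymph node populations was Rgs5, at 3856 for LN-LEC, 4393 for LN-BEC and 66.4 for D-LEC. Acta2, Myh11 and Pdgfrb, which define these cells, were at 213, 124 and 91.3 in LN-LEC and 872, 479 and 339 in LN-BEC. The part of these cells in the levels of Itga1 and Itga2 was not tested. Of the 6 BEC markers, in percent of the LN-BEC mean, Flt1 (0.267% to 0.592%) and Nrp1 (0.123% to 0.288%) stood below Itga2 (0.873%, 1.25% and 1.72%) in the D-LEC libraries. Vwf (1.73% to 3.23%), Notch4 (3.84% to 5.51%), Cd34 (3.82% to 4.48%) and Esam (5.68% to 7.44%) stood above it.

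The laminin-binding alpha subunits were highest in LN-BEC. Itga6 (chromosome 2, 71625140 to 71694815 of mm9, forward strand, 26 exon blocks) encodes alpha6, a receptor for endothelial laminins. Its normalized counts were 762, 750, 629 and 895 for LN-LEC, 5116, 4634 and 4209 for LN-BEC and 1729, 1834 and 1986 for D-LEC. The populations did not overlap, and LN-LEC was the lowest of the 3. LN-BEC exceeded LN-LEC 6.05-fold (LN-LEC minus LN-BEC -2.60 ± 0.12 SE, edgeR adjusted p = 9.7e-10) and D-LEC 2.52-fold (D-LEC minus LN-BEC -1.34 ± 0.12, edgeR adjusted p = 7.1e-07). D-LEC exceeded LN-LEC 2.40-fold (LN-LEC minus D-LEC -1.26 ± 0.11, edgeR adjusted p = 7.4e-07). Per kb it was the most abundant alpha subunit of LN-BEC (1107 normalized counts per kb), just above Itga1 (981).

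Itga3, which encodes alpha3, a receptor for laminins that contain alpha5, was low throughout. It lies on chromosome 11 from 94905796 to 94938028 of mm9 (reverse strand, 26 exon blocks). The libraries gave normalized counts of 467, 476, 432 and 706 for LN-LEC, 783, 877 and 869 for LN-BEC and 347, 308 and 293 for D-LEC. The 3 populations did not overlap, although LN-LEC replicate 4 stood well above the other LN-LEC libraries. LN-BEC exceeded LN-LEC 1.59-fold (-0.67 ± 0.15 SE, edgeR adjusted p = 0.0025), and LN-LEC exceeded D-LEC 1.68-fold (0.75 ± 0.16, edgeR adjusted p = 0.0014). The largest of its differences, 2.68-fold, was that of LN-BEC over D-LEC (-1.42 ± 0.17, edgeR adjusted p = 7.9e-06).

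Itgb4 encodes beta4, which pairs with alpha6 and links laminin to intermediate filaments in epithelium. It lies on chromosome 11 from 115836039 to 115869725 of mm9 (forward strand, 40 exon blocks), and 0.892% of its exon bases are shared with Galk1. Normalized counts were 754, 560, 639 and 701 for LN-LEC, 1103, 1036 and 725 for LN-BEC and 473, 549 and 570 for D-LEC. D-LEC lay below LN-BEC without overlap, while LN-LEC overlapped both. By edgeR, LN-BEC exceeded D-LEC 1.80-fold (D-LEC minus LN-BEC -0.85 ± 0.16 SE, adjusted p = 5.4e-04) and LN-LEC 1.42-fold (-0.51 ± 0.15, adjusted p = 0.013). The second of these calls was lost without LN-BEC replicate 1 (-0.40, adjusted p = 0.079) or replicate 2 (-0.44, adjusted p = 0.060). LN-LEC and D-LEC differed by 0.34 ± 0.15 (edgeR adjusted p = 0.078), which passed the threshold in a fit of only those 2 populations (adjusted p = 0.046), without LN-LEC replicate 2 (0.047) and without LN-BEC replicate 3 (0.028). The per-kb ratio of Itgb4 to Itga6 was 0.602 for LN-LEC, 0.139 for LN-BEC and 0.195 for D-LEC.

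Epithelium carries receptors made of alpha3 and beta1 and of alpha6 and beta4, and markers of mesothelium and epithelium were measured beside them. Their summed normalized count over 11 genes was 194 to 862 for LN-LEC, 321 to 2419 for LN-BEC and 662 to 2034 for D-LEC. The mesothelial genes Upk3b and Msln were at 618 and 276 in D-LEC, 15.6 and 4.89 in LN-LEC, and 24.1 and 5.31 in LN-BEC. By edgeR, 6 of the 11 genes were higher in D-LEC than in each lymph node population (Msln, Upk3b, Wt1, Lrrn4, Krt19 and Krt14). The means of the epithelial genes Epcam and Cdh1 had the order of Itga3 and Itgb4, at 396 and 173 in LN-BEC, 136 and 58.0 in LN-LEC, and 4.93 and 2.54 in D-LEC. The lymph node libraries spread widely, with Epcam from 100 to 914 in LN-BEC and from 66.0 to 295 in LN-LEC. The highest LN-BEC value was in replicate 3, where Itgb4 was at 725 (1103 and 1036 in replicates 1 and 2). Itga3 was at 869 in that library (783 and 877 in replicates 1 and 2). The highest LN-LEC value was in replicate 4, which also had the highest Itga3 of LN-LEC (706), with Itgb4 at 701. Epcam and Cdh1 were called lower in D-LEC in both comparisons. Neither was called between LN-LEC and LN-BEC (edgeR adjusted p = 0.21 and 0.19). The part of mesothelium and epithelium in the integrin levels was not tested.

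The alphav gene Itgav and the gene of its partner, Itgb3, had the same order across the populations. Itgav (chromosome 2, 83564554 to 83647073 of mm9, forward strand, 30 exon blocks) had normalized counts of 2569, 2929, 2129 and 2001 for LN-LEC, 1133, 1043 and 981 for LN-BEC and 3663, 4328 and 3373 for D-LEC. Itgb3 (chromosome 11, 104469314 to 104531785 of mm9, forward strand, 15 exon blocks) had 1657, 1695, 1870 and 1668 for LN-LEC, 551, 648 and 460 for LN-BEC and 3046, 2686 and 2467 for D-LEC. Both genes were highest in D-LEC and lowest in LN-BEC, and no populations overlapped for either. By edgeR, Itgav was 2.31-fold higher in LN-LEC than LN-BEC (1.21 ± 0.14 SE, adjusted p = 7.3e-06) and 1.55-fold higher in D-LEC than in LN-LEC (-0.63 ± 0.13, adjusted p = 0.0012). Itgb3 was 3.15-fold higher in LN-LEC than LN-BEC (1.65 ± 0.12, adjusted p = 8.7e-08) and 1.56-fold higher in D-LEC than in LN-LEC (-0.64 ± 0.11, adjusted p = 3.1e-04). D-LEC exceeded LN-BEC 3.59-fold for Itgav (1.84 ± 0.14, edgeR adjusted p = 1.5e-07) and 4.91-fold for Itgb3 (2.30 ± 0.13, edgeR adjusted p = 3.8e-09). The per-kb ratio of Itgb3 to Itgav was 0.896 for LN-LEC, 0.641 for LN-BEC and 0.889 for D-LEC.

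Platelets also carry beta3, and their markers were measured beside it. The sum of 8 platelet and megakaryocyte markers was 999 to 1212 for LN-LEC, 1267 to 1834 for LN-BEC and 119 to 253 for D-LEC, and most of it in the lymph node populations was Pf4, at 861 and 1528, against 74.4 in D-LEC. The markers did not share 1 order. Ppbp was highest in D-LEC (55.5, with LN-LEC at 2.36 and LN-BEC at 20.8), as were Gp1bb (24.0, against 8.57 and 0.350), Gp9 (4.78, against 0 and 0.868) and Gp5 (7.28, against 3.46 and 3.50). By edgeR, Ppbp and Gp9 were called higher in D-LEC than LN-LEC and Gp1bb higher in D-LEC than LN-BEC. Gp1ba was highest in LN-LEC (217, with LN-BEC at 32.7 and D-LEC at 15.3), and Treml1 in LN-BEC (11.8, against 7.26 and 1.84). Gp6, a platelet collagen receptor, was at or under 3 counts in every library. Of the 7 markers tested, 2 were called higher and 2 lower in LN-LEC than D-LEC. The part of platelets in the levels of Itgb3 was not tested.

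Itga5, which encodes the fibronectin receptor alpha5, was the member that was not called in any of the 3 comparisons. It lies on chromosome 15 from 103174718 to 103197179 of mm9 (reverse strand, 30 exon blocks). Single libraries had normalized counts of 1165, 1242, 1195 and 1083 for LN-LEC, 1490, 1701 and 1254 for LN-BEC and 1627, 1115 and 898 for D-LEC. The D-LEC libraries had the widest spread and covered most of the range of the other populations, while LN-BEC lay just above LN-LEC without overlap. The log2 fold changes were -0.32 ± 0.17 SE for LN-LEC minus LN-BEC (edgeR adjusted p = 0.15), -0.03 ± 0.17 for LN-LEC minus D-LEC (0.92) and -0.30 ± 0.18 for D-LEC minus LN-BEC (0.19). Without D-LEC replicate 1, its highest library, LN-BEC was called higher than D-LEC (-0.56, adjusted p = 0.0055) and than LN-LEC (-0.32, adjusted p = 0.037). Between LN-LEC and D-LEC the value changed sign over the alternatives (-0.20 to 0.23) and was not called in any of the 18. The call between the lymph node populations was also made in a fit of only the 2 lymph node populations (-0.33, adjusted p = 0.033).

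**Figure D3:**
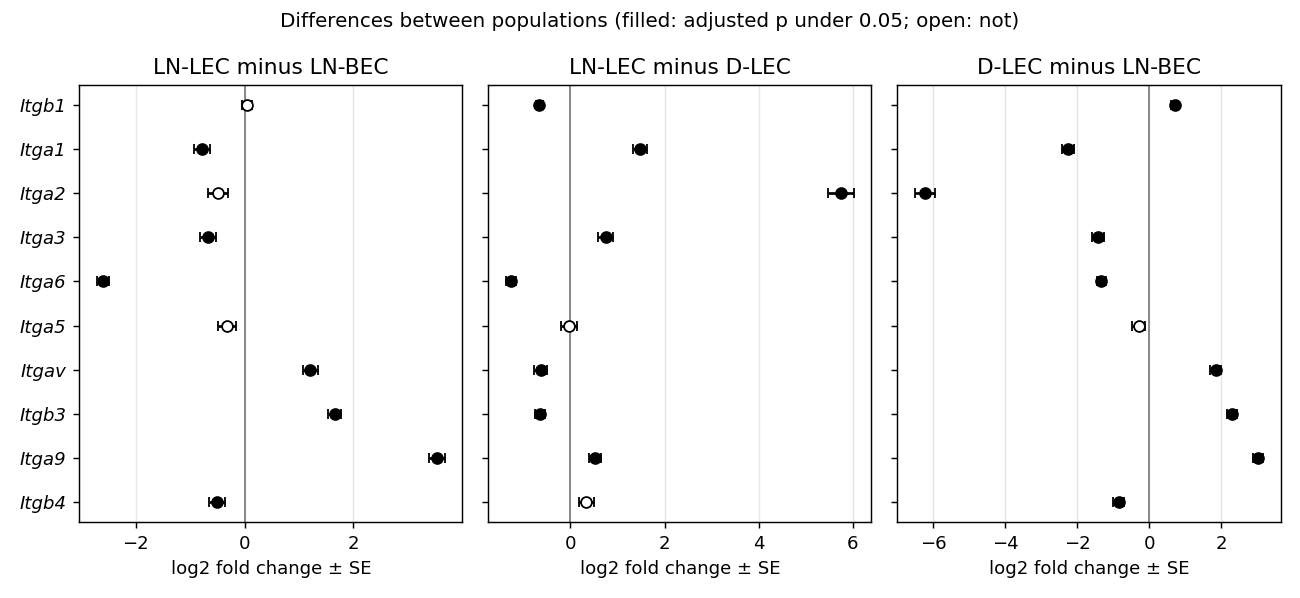
Log2 fold change of each integrin gene in the 3 comparisons, with bars for its SE from edgeR's fit to all 10 libraries, filled where the adjusted p was under 0.05 and open where it was not. Itga2 reaches 5.75 and -6.24 in the 2 comparisons with D-LEC, and Itga5 is open in all 3.

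The make-up of the alpha subunits by ligand was compared as shares of the summed per-kb level of the 7 alpha genes, which was 2706 for LN-LEC, 3179 for LN-BEC and 2238 for D-LEC. Other alpha genes were left out of this sum. Among them Itga2b, whose product pairs with beta3, stood at 2794 ± 407 normalized counts per kb (SD) in LN-LEC, about as much as the 7 together. Its level was 96.7 ± 59.4 in LN-BEC and 30.1 ± 13.1 in D-LEC. In LN-LEC the largest share among the 7 was that of Itga9, at 37.0% ± 2.69 (SD, n = 4), followed by the collagen-binding subunits at 29.7% ± 2.16. In LN-BEC the collagen-binding subunits took 41.6% ± 0.400 (n = 3) and the laminin-binding subunits 40.3% ± 0.382, and Itga9 took 2.78% ± 0.734. In D-LEC the subunits for fibronectin and vitronectin (Itga5 and Itgav) took 36.4% ± 4.31 (n = 3) and Itga9 took 31.7% ± 2.41. The collagen-binding share of D-LEC was 9.35% ± 2.09. The laminin-binding share was 10.7% ± 2.57 in LN-LEC and 22.6% ± 1.67 in D-LEC. The share of the subunits for fibronectin and vitronectin was 22.5% ± 2.64 in LN-LEC and 15.4% ± 1.16 in LN-BEC. Libraries of different populations did not overlap for any of the 4 classes in any of the 3 comparisons, including Itga9 between LN-LEC (34.1% to 40.4%) and D-LEC (29.1% to 33.9%). The 12 differences each gave the smallest p that an exact two-sided permutation test allows here, 0.0571 for 4 against 3 libraries and 0.1 for 3 against 3 (0.0857 and 0.1 after Benjamini-Hochberg adjustment over the 12), so that none could pass 0.05. Shares of 1 sum depend on each other, and a fall of 1 subunit raises the share of every other.

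**Figure D4:**
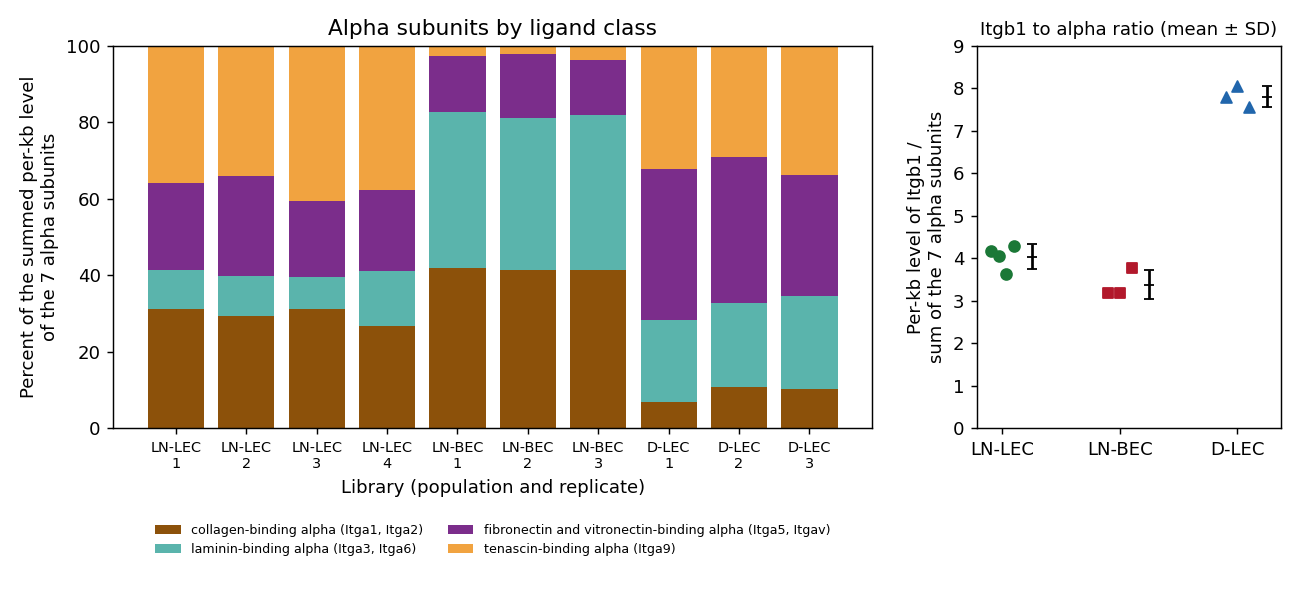
Left, percentage of the summed per-kb level of the 7 alpha subunits in each ligand class, with 1 stacked bar for a library. Right, per-kb level of Itgb1 divided by that sum, with 1 point for a library and mean ± SD: D-LEC sits at 7.57 to 8.06 and all lymph node libraries sit at 4.29 or less.

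Itgb1 was compared with the alpha subunits that can pair with it. Its per-kb level was 4.04 ± 0.285 times the summed level of the 7 alpha genes in LN-LEC (SD, n = 4), 3.38 ± 0.344 times in LN-BEC (n = 3) and 7.81 ± 0.246 times in D-LEC (n = 3). D-LEC libraries lay above all lymph node libraries, and LN-LEC and LN-BEC overlapped. Exact two-sided permutation tests gave p = 0.114 between the lymph node populations, 0.0571 for D-LEC against LN-LEC and 0.1 against LN-BEC, the last 2 being the smallest p the design allows (0.114 for all 3 after adjustment). The order of the alpha subunits within a population differed as well. The per-kb ratio of Itga1 to Itga9 ranged from 0.519 to 0.617 in the LN-LEC libraries, from 9.12 to 13.7 in LN-BEC and from 0.213 to 0.368 in D-LEC. In LN-LEC, below Itga1 (564 normalized counts per kb), Itgav (341 ± 60.2) did not differ beyond its spread from Itgb3 (298 ± 17.3). Nor did Itga2 (243 ± 44.5) from Itga5 (268 ± 15.3). Itga6 was lower on average (181 ± 25.9) but lay above Itga2 in replicate 4 (213 against 183). Itgb4 and Itga3, at 108 and 107, did not differ beyond their spread. In D-LEC Itgav (537 ± 69.5), Itgb3 (473 ± 50.6) and Itga6 (440 ± 30.6) differed by about their spreads, and the lowest member was Itga2 at 4.38. In LN-BEC Itga2 and Itga5 (343 and 339) did not differ beyond their spread, nor did Itgb3 and Itga9 (95.7 and 87.4). Itgb4 (155 ± 32.7) did not differ beyond its spread from Itga3 (174 ± 10.8) or Itgav (149 ± 10.8). The Itga3 libraries, at 161.3 or more, lay just above those of Itgav, at 160.6 or less.

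Other integrin subunits were called in both directions. Of 16 listed genes 15 were tested, and Itgad had no count. In the 3 comparisons, in the order below, 6, 7 and 10 of the 15 were called. Of all tested genes 38.2%, 45.8% and 48.0% were called, so that the first 2 counts lay near the share of all genes. Between LN-LEC and LN-BEC, 2 were higher in LN-LEC and 4 in LN-BEC, and 9 were not called. Itga2b, which encodes the alphaIIb partner of beta3, was 29.4-fold higher in LN-LEC (9603 ± 1399 against 332 ± 204 normalized counts, edgeR adjusted p = 4.7e-05). Itga8, another alpha partner of beta1, was 4.51-fold higher in LN-LEC (332 against 74.8). Itgb5, a further beta partner of alphav, was 9.69-fold higher in LN-BEC (33.1 in LN-LEC, 330 in LN-BEC), and Itga7, a laminin-binding alpha subunit, was 7.07-fold higher there (9.17 against 67.1). Between LN-LEC and D-LEC, 4 were higher in LN-LEC, 3 in D-LEC, and 8 were not called. Itga2b again led, at 96.5-fold (9603 against 103 ± 45.2, edgeR adjusted p = 1.2e-05). Itgae, the alpha partner of beta7, was at or under 3 counts in every D-LEC library and at least 5.81-fold higher in LN-LEC (17.9) when D-LEC was set to 3 counts per library. Itgb2, the beta subunit of leukocyte integrins, was 5.77-fold higher in D-LEC (117 against 19.8), and Itgb8, which pairs with alphav, stood at 31.6 in D-LEC against 3.25. Between D-LEC and LN-BEC, 3 were higher in D-LEC, 7 in LN-BEC, and 5 were not called. Those higher in LN-BEC included Itgb7 and Itgal, subunits of lymphocyte integrins, with Itgb7 at 80.3 against 5.74 and Itgal 5.28-fold higher, and Itgae (14.8 against 1.49). Itgb2, the beta subunit of leukocyte integrins, had the reverse order, at 117 ± 39.8 in D-LEC against 34.8 ± 8.56 in LN-BEC. The leukocyte marker sum was 1088 to 1660 in LN-BEC and 153 to 286 in D-LEC. Of its 15 genes, 10 were called higher in LN-BEC by edgeR and 1, Csf1r, in D-LEC (58.3 against 25.7). The part of leukocytes in these levels was not tested. Itgb8 was higher in D-LEC (31.6 against 5.65), and Itga2b was 3.28-fold higher in LN-BEC.

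Genes for matrix ligands of these receptors were counted from a list of 29, all of which were tested. In the 3 comparisons, in the order below, 17, 20 and 19 were called, where 38.2%, 45.8% and 48.0% of all tested genes were called. Between LN-LEC and LN-BEC, 9 were higher in LN-LEC and 8 in LN-BEC, and 12 were not called. Tnc, which encodes the alpha9 ligand tenascin-C, was 26.3-fold higher in LN-LEC (20832 ± 1952 against 804 ± 467 normalized counts, edgeR adjusted p = 1.3e-05), and Postn, which encodes periostin, was 12.6-fold higher. Laminin chains moved in opposite directions, with Lamb3 higher in LN-LEC (357 against 18.3) and Lama3 44.1-fold higher in LN-BEC (2625 against 60.7). Col4a2, a chain of collagen IV and on average the most abundant gene of the list, was 5.51-fold higher in LN-BEC (49008 against 8795). Between LN-LEC and D-LEC, 11 were higher in LN-LEC, 9 in D-LEC, and 9 were not called. Tnc was 37.0-fold higher in LN-LEC (573 ± 85.0 in D-LEC, edgeR adjusted p = 7.4e-06), and Lama5 9.87-fold. Col4a2 was 1.65-fold higher in D-LEC (14733 against 8795). Lamb3, with at most 1 count in any D-LEC library, was at least 115-fold higher in LN-LEC when D-LEC was set to 3 counts per library. Spp1, which encodes osteopontin, was higher in D-LEC than in either lymph node population (edgeR adjusted p = 7.6e-04 and 0.0017), at 643 ± 354 in D-LEC, compared with 12.1 ± 18.1 in LN-LEC and 15.1 ± 4.47 in LN-BEC. Between D-LEC and LN-BEC, 10 were higher in D-LEC, 9 in LN-BEC, and 10 were not called, with Lama3 (11.7 against 2625), Lama5 (344 against 8771), Col4a2 (3.35-fold) and Lamb3 (at least 5.93-fold, against 3 counts per library) among those higher in LN-BEC.

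Among 34 genes for integrin activation and adhesion linkers, all tested, 8 were higher in LN-LEC and 13 in LN-BEC, and 13 were not called in that comparison. Lims2, which encodes the linker PINCH2 of the integrin-linked kinase complex, was 60.5-fold higher in LN-BEC (4266 ± 494 against 69.5 ± 33.0, edgeR adjusted p = 2.1e-06) and stood at 70.7 ± 37.7 in D-LEC. Its paralog Lims1, on average the most abundant gene of the list, was called in all 3 comparisons, at 8225 for LN-LEC, 10774 for LN-BEC and 36224 for D-LEC. Src, which encodes a kinase of focal adhesions, was 7.59-fold higher in LN-LEC than LN-BEC (250 against 33.5) and 5.71-fold higher than in D-LEC, and Parvg, which encodes a parvin of blood cells, was 6.63-fold higher in LN-BEC than LN-LEC (144 against 21.1). Fermt3, the kindlin of blood cells, was 4.84-fold higher in LN-LEC than LN-BEC (230 against 47.8) and 20.9-fold higher than in D-LEC (10.9). Between LN-LEC and D-LEC, 5 were higher in LN-LEC and 18 in D-LEC, and 11 were not called. Cd9, a tetraspanin that associates with beta1 integrins, was 6.17-fold higher in D-LEC (40794 against 6514), and the focal adhesion gene Tns3 was 12.5-fold higher in LN-LEC. Between D-LEC and LN-BEC, 12 were higher in D-LEC, 7 in LN-BEC, and 15 were not called. Apbb1ip, which encodes a partner of talin and Rap1, was 7.52-fold higher in LN-BEC (64.5 against 8.96), as was Tns3 by 5.42-fold, and Cd9 was 5.59-fold higher in D-LEC. In the 3 comparisons in this order, 21, 23 and 19 of the 34 were called, where 38.2%, 45.8% and 48.0% of all tested genes were called. The median log2 fold changes of this list, -0.15, -0.39 and 0.22 in the 3 comparisons, lay beside medians of all tested genes of -0.01, 0.03 and -0.05.

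Other cell types that a digest of these tissues could hold were followed by their markers. Of 10 skeletal muscle genes, 9 were called higher in D-LEC than in each lymph node population, among them Acta1 at 528 and Mb at 217 in D-LEC against 1.42 and 0.972 in LN-LEC. Ttn was the exception, and as the most abundant of the 10 it set their sum, which was 3409 to 3952 for LN-LEC, 2774 to 3445 for LN-BEC and 1608 to 2370 for D-LEC. A sum of 8 Schwann cell markers was 10728 to 11901 in D-LEC, 3446 to 4282 in LN-LEC and 1798 to 3485 in LN-BEC. Most of it was Pmp22. By edgeR, Pmp22 and Ncam1 were called higher in D-LEC than in each lymph node population, Sox10 was called lower, and 5 were not called. Ncam1 stood at 990 in D-LEC, 99.4 in LN-LEC and 74.0 in LN-BEC. Sox10, a defining gene, stood at 3.55 in D-LEC, 61.0 ± 63.2 (SD) in LN-LEC and 149 ± 186 in LN-BEC, a wide spread between libraries. Of 8 fibroblast and reticular cell markers 1 was called in each comparison with D-LEC, Ccl19, which had no count there, and the ranges of their sum overlapped (4715 to 9770, 2848 to 10985 and 3414 to 10553 for the LN-LEC, the LN-BEC and the D-LEC). The part of these cells in the levels of Itgb1, Itgav and Itgb3, which were highest in D-LEC, was not tested.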

How the data were processed

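Per the labels and the study's methods, RNA of sorted, CD45-depleted cells was amplified (Ovation RNA-Seq System V2), and both ends were sequenced. The authors used Fastx-trimmer for the reads, STAR to align to mm9, and featureCounts 1.4.4 for fragments on the exons of a gene symbol (tools and build are also in the submitters' processing notes). A fragment counted only with both ends mapped to 1 place and irrespective of strand. The authors deposited these raw counts, not normalized, with an exon length per gene. Amplification before counting means that intervals of single counts would cover counting error only, and none are given.

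Counts were divided by DESeq2 1.42.0 size factors for levels. The test was that of edgeR 4.0.16 under R 4.3.3 (TMM factors, robust quasi-likelihood F test, 1 mean per population, all 10 libraries), with Benjamini-Hochberg adjustment within each comparison over 15373 genes: named symbols whose mean normalized count reached 1 in any population. Symbols of predicted genes and clones (3755 rows) were not tested. The SE of a log2 fold change is its absolute value over the root of F. Shares and ratios were compared by exact permutation over libraries (SciPy 1.17.1). The procedure was tested on simulated data. No 2 libraries of a population agreed within sampling noise (chi-square per gene at least 10.02).

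All 10 integrins are named. From the 3 lists of related genes, at most 4 genes per comparison are named, those with the largest absolute fold change among the called, plus the most abundant. Itgb2 is also given between D-LEC and LN-BEC, beside the leukocyte markers. The members and lists were chosen with earlier results of these data known. The labels give no batch, sorting day or pairing. P-values measure the spread between pools of animals. Alternatives were other size factors, DESeq2, other filters, fits of 2 populations, counts without length scaling and leaving out libraries.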

Additional observations from a re-analysis of the deposited data

Results flagged for a closer look

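The normalized counts of the 10 integrins and the 5 class shares and ratios in LN-LEC, the only population with 4 libraries, were checked for a library far from the others. Of these 15 values 1 stood out. Itga3 was at 706 in LN-LEC replicate 4 and at 432 to 476 in the other 3, so that the gap took 0.839 of the whole range. Chance gives such a gap in about 1 of 20 groups. LN-LEC replicate 4 was the most deeply sequenced library (48906070 fragments), and normalized counts are already scaled for depth. It also had the highest sum of the mesothelium and epithelium markers among the LN-LEC libraries (862, with 194 in the lowest). In LN-BEC that sum was highest in replicate 3 (2419), where Itga3 was at 869, between replicates 1 and 2 (783 and 877). The part of these cells was not tested. Without LN-LEC replicate 4 and LN-BEC replicate 3, Itga3 was called higher in LN-BEC than LN-LEC by edgeR (-0.84 ± 0.13 SE, adjusted p = 1.0e-04).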

How the results depend on the processing

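Over 18 alternatives, 527 of 540 log2 fold changes of the 10 integrins kept direction and side of the threshold, where a difference that was never called counts as kept whatever its sign. No called difference changed sign, 2 lost the call and 11 gained it, all in Itga2, Itga5 and Itgb4 as given with those genes. The number of integrins called higher in LN-BEC than LN-LEC ranged from 3 to 5 and that called higher in LN-LEC stayed at 3. The counts ranged from 4 to 5 for LN-LEC over D-LEC and from 5 to 6 for LN-BEC over D-LEC, and were 4 for D-LEC over each lymph node population. Counts over all tested genes stayed within 1.5 times. Dividing by gene length mattered for the shares and ratios. Without it, the collagen-binding share was 26.8% in LN-LEC and 45.8% in LN-BEC, the laminin-binding share was 7.91% for LN-LEC, 34.4% for LN-BEC and 16.1% for D-LEC, and the Itga9 share was 43.4%, 3.92% and 37.5%. The ratio of Itgb1 to the 7 alpha genes was then 2.81 for LN-LEC, 2.82 for LN-BEC and 5.46 for D-LEC. The other 64 of 75 alternative shares and ratios moved by less than the spread between libraries. Itga2 in D-LEC rests on 10 to 30 fragments, and its fold is the least precise. No paired analysis was possible because the labels give no number, animal or day shared between populations.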
